A study of Mus musculus with 10 samples.

Results

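The 4 whole-lung libraries described here came from wild-type NIH Swiss mice, 7 weeks old, and were taken from the 10 RNA-seq libraries of the study because their labels name lung as the source. 2 lungs were collected 24 hr after 1 IV dose of vehicle (5% dextrose) and 2 were collected 24 hr after 60 mg/kg CBL0137 given IV. The study compared these groups to see how the compound changes RNA in a tissue of a living animal. The other 6 libraries were from mouse embryonic fibroblasts (MEF). Of these, 4 were from wild-type C57BL/6J mice (2 untreated, 2 given 1 µM CBL0137 for 24 hr) and are compared with lung below. The other 2 were from p53-/- mice (1 untreated, 1 given 1 µM CBL0137 for 24 hr). Those 2 enter only the check of lung markers and the fit of all 10 libraries. The labels give 2 mice per group, so each library was 1 mouse. The sample labels call the mice female and the design text calls them male.

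CBL0137 is a curaxin, a small molecule that binds DNA, loosens the wrapping of DNA in nucleosomes and traps FACT, the histone chaperone made of Ssrp1 and Supt16, on chromatin. Loss of nucleosome structure can let normally silent repeats be transcribed, and double-stranded RNA made from repeats can be sensed by the cell and start an interferon response. Interferon in turn switches on a well known set of genes through transcription factors such as Irf9, among them those for antigen processing (Tap2, Psmb8) and antiviral proteins.

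The deposited values were read counts per gene identifier, and only 1.01% to 1.14% of all counted reads of a lung lay on an identifier. This left 200754 and 16579 counts in vehicle lungs 1 and 2, and 181047 and 243898 counts in CBL0137 lungs 1 and 2. Vehicle lung 2 was thus 10.9 to 14.7 times shallower than the others, and 1 read in it was worth 60.5 counts per 1e6 (CPM) against 4.59 to 7.07 in the others. Of the 2377 identifiers with enough counts to test, 385 were at 0 in vehicle lung 2 and 1 to 6 in each of the other lungs. CBL0137 lung 1 also stood apart. Its rank correlation with vehicle lung 1 and with CBL0137 lung 2 was 0.765 in both cases, while those other deep lungs, of different groups, correlated at 0.871 (Spearman, across identifiers, which are not independent). Where a named difference came mostly from CBL0137 lung 1, this is said beside it.

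The counts appeared to be of the strand opposite to each gene. Identifiers whose exons face exons of a gene on the other strand held 67.3% to 68.9% of the counts of each lung, at 13.5 counts per kb of exon summed over the 4 lungs, against 1.67 per kb for identifiers with no gene of the other strand within 5 kb. Sftpc, the surfactant protein that marks alveolar type 2 cells and is among the most abundant mRNAs of lung, had only 30, 7, 44 and 60 counts in vehicle lungs 1 and 2 and CBL0137 lungs 1 and 2. Counts are given in this order of the 4 lungs throughout. The library kit keeps the strand, but the strand setting of the counting was not given in the sources used here. Where exons of an identifier face exons of a gene on the other strand, that gene is therefore named where the counts are described. Which of the pair a read came from is not settled by these files.

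Read in this way, the libraries carried lung genes. Gm15883 lies opposite Cyp2f2, a cytochrome P450 of club cells, and had 344, 31, 195 and 411 counts in the lungs and 0 in all 6 MEF libraries. D330041H03Rik, opposite the surfactant lipid transporter Abca3 of alveolar type 2 cells, had 454, 44, 475 and 584 counts in the lungs. Hopxos (opposite Hopx) and Gm16212 (opposite Rtkn2), both facing alveolar type 1 genes, were at 845 to 2075 and 387 to 791 CPM in lung. Over all 6 MEF libraries, wild-type and p53-/-, they were at 3.71 to 80.2 and 0 to 23.2 CPM. Apol7d, opposite the fibroblast matrix gene Fn1, was instead at 60.3 to 337 CPM in lung and 1277 to 4867 in the same 6 MEF libraries. Pecam1, the endothelial adhesion molecule, had 4, 1, 4 and 4 counts on its own identifier, and Cyp2f2 itself had 2, 0, 0 and 1. Some markers had more counts under their own name. Vwf of endothelial cells had 19, 6, 28 and 20, and Csf1r of macrophages had 41, 1, 19 and 50 while Hmgxb3, which faces it, had 2, 0, 2 and 5. Neither was limited to lung, since wild-type MEF libraries had 2 to 53 counts at Vwf and 28 to 120 at Csf1r. Reads on Csf1r may be of Hmgxb3. Tsix, opposite Xist, had 598, 47, 839 and 521 counts, against 0 and 1 in the 2 p53-/- MEF libraries. Of the 6 sex-linked genes listed (Xist, Tsix, Ddx3y, Kdm5d, Eif2s3y and Uty), only Xist and Tsix had a count in a lung. No identifier has exons opposite the Y-linked ones, so those could not be read from the other strand. Which of the 2 stated sexes holds was not tested.

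**Figure D1:**
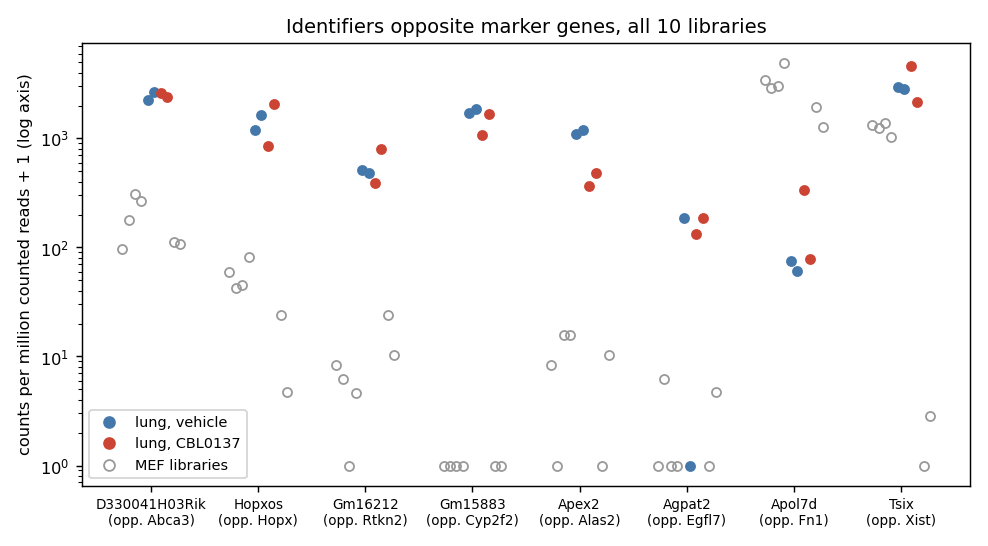
CPM (of the reads counted on identifiers) plus 1 (log axis) for 8 identifiers opposite marker genes, with 1 point per library in lung (filled, vehicle and CBL0137) and MEF (open, wild-type and p53-/-). The lungs lie above every MEF library at the identifiers opposite Abca3, Hopx, Rtkn2, Cyp2f2, Alas2 and Xist, and below them at the identifier opposite Fn1.

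CBL0137 against vehicle. No identifier passed the test in lung. Of 2377 identifiers, 0 were higher and 0 lower after CBL0137 at an adjusted p of 0.05 (edgeR quasi-likelihood test, Benjamini-Hochberg adjustment), which is 0% in either direction, and DESeq2 also called 0. At an unadjusted p of 0.05 edgeR gave 74 identifiers (3.11%), 56 higher (2.36%) and 18 lower (0.757%), and DESeq2 gave 24. The median standard error of a log2 fold change was 0.615, so differences of that size were not detectable at this depth. Both CBL0137 lungs lay above both vehicle lungs at 429 identifiers (18%) and below both at 294 (12.4%). With 2 lungs against 2, an exact two-sided permutation test of a single value cannot give less than 0.333. The identifiers described next are those with the smallest p in each direction, and none of them passed.

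The call of 0 depended on single libraries. Without CBL0137 lung 2, which leaves lung 1 alone in its group and assumes that it varies like the vehicle lungs, 84 identifiers were called higher and 29 lower. Without CBL0137 lung 1 there were 0 higher and 1 lower, without vehicle lung 1 there were 2 and 0, and without vehicle lung 2 there were 5 and 0. A fit that weighted each library and a fit over all 10 libraries each called the same 3 identifiers higher, namely Gm20663, Gm10800 and Gm10801, which are described first. The weighted fit gave its highest sample weight to the shallow vehicle lung 2 (1.67) and its lowest to CBL0137 lungs 1 and 2 (0.70 and 0.74).

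The smallest p belonged to Gm20663 (ENSMUSG00000093378), an antisense transcript on the plus strand at GRCm38 chr7:105901568-106093337. Its exons share 320 bases with exons of Gm4070 on the other strand, a gene that RefSeq also lists as very large interferon-inducible GTPase. Gm20663 had 7, 1, 81 and 93 counts, or 39.1, 60.5, 573 and 427 TMM-scaled CPM. Both CBL0137 lungs were above both vehicle lungs, as at 18% of all identifiers. Vehicle lung 2 rests on 1 read there, so the spread of the vehicle lungs cannot be read. The log2 fold change was 3.54 ± 0.59 (SE, n = 2 per group) and the adjusted p was 0.0567 (edgeR, Benjamini-Hochberg), just short of the threshold. Over the other settings the adjusted p ran from 5.5e-08, without CBL0137 lung 2, to 0.617. The neighbouring gene Gvin1 carries 66.6% of the 20-base words of Gm20663 on its opposite strand, exactly as Gm4070 does, so reads of these near-identical copies cannot be assigned to 1 of them. The start of Gm20663 and the stretch of Gm4070 that faces it are shown because they let a reader see what an opposite-strand pair is. Each is the reverse complement of the other, and both are read 5′ to 3′ from the GENCODE transcripts.

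Gm20663: agagctgtgagcaccaggaatgcctgggct
Gm4070: agcccaggcattcctggtgctcacagctct

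The next 3 by p were predicted genes built of repeat sequence. Gm10801 (ENSMUSG00000075015, plus strand, chr2:98662237-98664083) and Gm10800 (ENSMUSG00000075014, minus strand, chr2:98666547-98667301) lie 2464 bases apart, and Gm21738 (ENSMUSG00000095280, minus strand) lies at chr14:19415857-19418930. All share the 54-base run set in capitals below, which belongs to the repeat unit known as mouse major satellite, the tandem DNA that fills pericentromeric heterochromatin. The 114-base windows are shown because the counts of these identifiers can come from any copy of such repeats.

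Gm10800: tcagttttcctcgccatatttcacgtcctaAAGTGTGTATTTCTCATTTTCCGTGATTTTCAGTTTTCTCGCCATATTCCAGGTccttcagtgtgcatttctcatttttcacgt
Gm10801: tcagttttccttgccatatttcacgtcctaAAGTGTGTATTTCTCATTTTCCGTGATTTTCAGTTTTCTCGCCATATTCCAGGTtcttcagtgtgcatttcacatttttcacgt
Gm21738: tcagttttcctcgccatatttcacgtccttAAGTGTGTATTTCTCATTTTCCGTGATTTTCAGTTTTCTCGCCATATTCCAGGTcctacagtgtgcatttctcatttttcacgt

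Gm10800 had the most counts of the 3, with 343, 33, 1360 and 1047, or 1918 and 1998 CPM in the vehicle lungs and 9621 and 4810 CPM in the CBL0137 lungs. The vehicle lungs were nearly equal despite their unequal depth, and both CBL0137 lungs lay above them. The log2 fold change was 1.88 ± 0.41 (SE) with an adjusted p of 0.215 (edgeR, Benjamini-Hochberg). Gm10801 had 78, 8, 292 and 310 counts and a log2 fold change of 1.95 ± 0.39, adjusted p 0.193. Gm21738 had 67, 2, 156 and 290 counts, or 375, 121, 1104 and 1332 CPM, adjusted p 0.215 (95% interval of the log2 fold change 1.07 to 2.93). In each of the 3 both CBL0137 lungs lay above both vehicle lungs, as at 18% of all identifiers.

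In all, 9 tested identifiers shared at least 5% of their 20-base words with Gm10800 or Gm10801, and this group was put together with its values known. All 9 had a log2 fold change above 0, as did 57.1% of all identifiers tested, with a median of 1.89 against 0.09 over all. An unadjusted p of 0.05 was reached by 8 of the 9 (3.11% of all identifiers) and in 7 both CBL0137 lungs lay above both vehicle lungs (18% of all). Because the group was formed by its likeness to identifiers among those with the smallest p, these counts are a description only. The remaining 6 lie in 1 block at the start of chromosome 9, where Gm10721, Gm10717, Gm10718, Gm10719 and Gm11168 all face Gm26870 on the other strand, so that they are not independent readings. Gm26870, a lincRNA that also faces Gm10715, had 134, 21, 651 and 287 counts and a log2 fold change of 1.63 ± 0.52 (SE). CBL0137 lung 1 was the higher of the treated lungs there, at 4605 CPM against 1319 CPM in lung 2 and 1271 CPM in vehicle lung 2, so the latter pair nearly touched, and without lung 1 the log2 fold change was 0.60. Gm10721 had 21, 2, 88 and 58 counts and a log2 fold change of 1.89 ± 0.56. Gm11168 showed little difference, with 17, 0, 17 and 19 counts and a log2 fold change of 0.37 ± 0.69. Without CBL0137 lung 1 the median of the 9 was 1.35 and 4 of them kept an unadjusted p of 0.05. Without CBL0137 lung 2 it was 2.29.

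**Figure D2:**
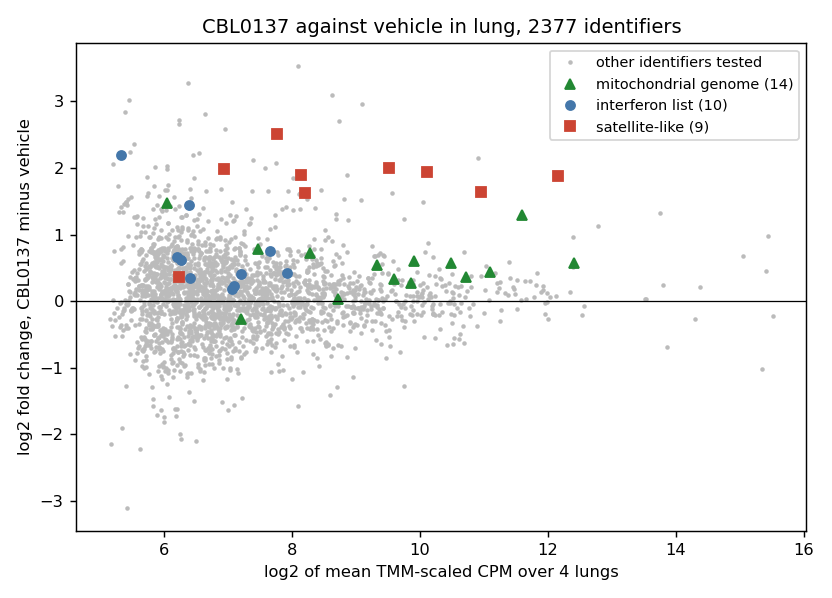
Log2 fold change (CBL0137 minus vehicle) against the log2 of the mean TMM-scaled CPM over the 4 lungs, 1 point per tested identifier (2377). The 9 satellite-like identifiers all lie above 0 with a median of 1.89, and the 10 of the interferon list lie above 0 with a median of 0.52. Of all 2377 identifiers, 57.1% lie above 0, with a median of 0.09.

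Further identifiers among the 10 higher with the smallest p had few counts or rested on 1 lung. ENSMUSG00000082697, which has no match in the annotation used, had 3, 0, 31 and 21 counts, a ratio of 9.32 (95% counting interval 3.02 to 46.6, exact binomial, counting error only). Fam221b, opposite the pseudogene Gm12481, had 22, 2, 252 and 37 counts. Tlcd1, opposite the ribosomal protein gene Rpl23a, had 118, 13, 768 and 182 counts. For Fam221b and Tlcd1 the difference came almost wholly from CBL0137 lung 1, at 1783 and 5433 CPM, while CBL0137 lung 2 was at 170 and 836 CPM beside vehicle lungs at 121 to 123 and 660 to 787 CPM. Gm20633, opposite the histone H2A gene Hist2h2aa1 and its neighbour Gm20634, had 26, 0, 197 and 36 counts and the same shape.

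**Figure D3:**
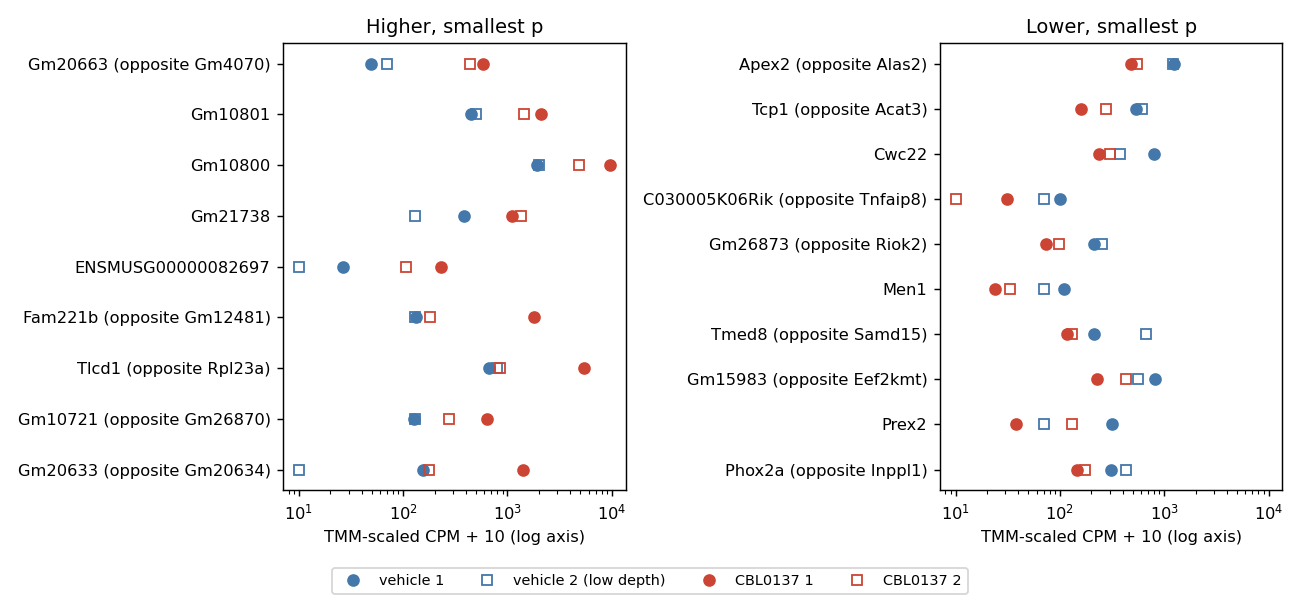
TMM-scaled CPM plus 10 (log axis) in each of the 4 lungs for 9 identifiers higher and 10 lower after CBL0137 with the smallest unadjusted p. The 2 lungs of a group lie close together at Apex2, while at Fam221b, Tlcd1 and Gm20633 CBL0137 lung 1 stands alone.

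Among identifiers lower after CBL0137, Apex2 (ENSMUSG00000025269, minus strand, chrX:150519519-150589868) had the smallest p. Apex2 encodes an AP endonuclease, and 311 bases of its exons face Alas2, the erythroid enzyme that starts heme synthesis and is made in young red cells. Apex2 had 219, 20, 66 and 118 counts, or 1225 and 1211 CPM in the vehicle lungs against 467 and 542 CPM in the CBL0137 lungs. Both CBL0137 lungs lay below both vehicle lungs, as at 12.4% of all identifiers, and each group was tight. The log2 fold change was -1.27 ± 0.36 (SE), unadjusted p 0.00308, and the adjusted p was 0.982 (edgeR, Benjamini-Hochberg). Apex2 also faces Pfkfb1. In bulk tissue, fewer cells of a type and less RNA per cell cannot be told apart. The 8 red cell markers together had 22, 3, 9 and 28 counts on their own identifiers, with Hbb-bs at 0 to 1, and their part in the value at Apex2 was not tested.

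The other 9 of the lower group had adjusted p of 1.00 (edgeR, Benjamini-Hochberg). Tcp1, a subunit of the cytosolic chaperonin, faces Acat3, an acetyl-CoA acetyltransferase, and had 95, 10, 21 and 58 counts, a log2 fold change of -1.40 ± 0.46 (SE). Cwc22, a spliceosome protein with no gene opposite, had 142, 6, 32 and 63 counts and a log2 fold change of -1.30 ± 0.44. Gm26873, opposite the ribosome biogenesis kinase Riok2, had 36, 4, 9 and 19 counts and a log2 fold change of -1.45 ± 0.55. Men1, the gene for the tumour suppressor menin, had 18, 1, 2 and 5 counts. Tmed8, of whose 7409 exon bases 369 lie opposite an intron of Samd15, Gm15983, opposite Eef2kmt, and Phox2a, opposite the inositol phosphatase gene Inppl1, also had both CBL0137 lungs below both vehicle lungs. That separation was seen at 12.4% of all identifiers. C030005K06Rik, opposite Tnfaip8, had 16, 1, 3 and 0 counts, a ratio of 0.0948 (95% counting interval 0.0178 to 0.328, counting error only). Prex2 was the exception, since its groups overlapped, and without vehicle lung 1 its log2 fold change was 0.40.

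Interferon-response loci. The list of interferon-response genes held 70 genes, of which 69 had an identifier. 49 of those had at least 1 count in a lung and 6 could be tested. A further 17 identifiers lie opposite a listed gene, 5 of which could be tested, and Parp9 is in both sets because it faces Dtx3l. None of these 10 passed the test (edgeR, Benjamini-Hochberg, and DESeq2 also 0), and 1, Ifi27, reached an unadjusted p of 0.05. Ifi27 met the count filter through the CBL0137 lungs alone. It could therefore be tested only because it was high in them, and its value is a description. All 10 had a log2 fold change above 0, as did 57.1% of all identifiers tested. Their median was 0.52 against 0.09 over all. In 8 both CBL0137 lungs lay above both vehicle lungs, a separation that 18% of all identifiers showed. With library sizes from all lines of the files, 9 of the 10 were above 0, since Tapbp was then at -0.01, beside 40.4% of all. Without vehicle lung 1, and likewise without CBL0137 lung 1, 9 of the 10 were above 0.

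Of the antigen processing loci, Gm15821, opposite the peptide transporter gene Tap2, had 40, 3, 45 and 55 counts and a log2 fold change of 0.42 ± 0.47 (SE). Gm20496, opposite the immunoproteasome subunit gene Psmb8 and also Tap2, had 7, 1, 21 and 19 counts and a log2 fold change of 1.44 ± 0.74, unadjusted p 0.0696. Tapbp, the gene for tapasin, faces Gm19412 and had 23, 2, 20 and 32 counts. Psme1, a proteasome activator gene, faces Emc9 and had 14, 0, 21 and 15 counts and overlapping groups. Each of these differences was within about 2 standard errors of 0.

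Among regulators, Gm17334, opposite the transcription factor gene Irf1, had 35, 1, 28 and 77 counts and a log2 fold change of 0.76 ± 0.54 (SE). Irf1 on its own identifier had 23, 2, 20 and 34 counts and a log2 fold change of 0.23 ± 0.54. Both values lay within 2 standard errors of 0. Gm11626, opposite Ifi35, had 23, 2, 24 and 37 counts. Parp9, which encodes a partner of the ubiquitin ligase Dtx3l, had 10, 2, 9 and 22 counts, and its log2 fold change of 0.34 became -0.47 without vehicle lung 1. Ly6e, which encodes a surface protein, had 11, 1, 10 and 25 counts. Ifi27 had 3, 0, 12 and 13 counts, a ratio of 4.48 (95% counting interval 1.37 to 23.2, counting error only). Listed genes that were too low to test varied in direction, and those given here were picked with their values seen. Oasl2 had 0, 0, 5 and 6 counts, Usp18 (facing Gm44148) had 1, 0, 4 and 4 and Ifit1 had 1, 0, 1 and 1. Ifit2 had 2, 0, 0 and 2, Ifih1 had 2, 0, 0 and 0 and Uba7 had 6, 0, 1 and 2. All 69 own identifiers of the list, tested or not, summed to 157, 8, 184 and 259 counts.

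Other loci that are not in the list but hold immune genes were picked out with their values known, and are given as a description. Dexi faces Ciita, the master regulator of MHC class II genes, and had 4, 0, 28 and 18 counts, a log2 fold change of 2.72 ± 0.88 (SE). Gm11131 faces the MHC class I gene H2-Q4 and had 53, 2, 105 and 108 counts, a log2 fold change of 1.30 ± 0.46. Gm17017 faces Sp140, which encodes a nuclear body protein of immune cells, and had 7, 0, 38 and 15 counts, a log2 fold change of 2.22 ± 0.86 that came mostly from CBL0137 lung 1 and was 0.95 without it. In all 3 both CBL0137 lungs lay above both vehicle lungs, as at 18% of all identifiers, and the adjusted p of each was 1.00 (edgeR, Benjamini-Hochberg). Vehicle lung 2 had only 0 to 2 counts at these loci, so the separation rests mostly on vehicle lung 1. Dexi and Gm17017 also met the count filter through the CBL0137 lungs alone.

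**Figure D4:**
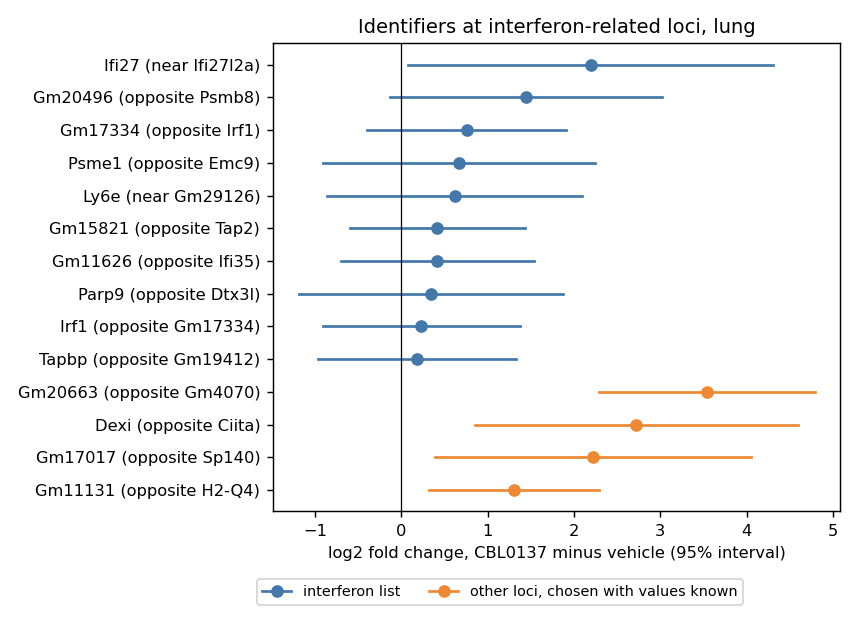
Log2 fold change (CBL0137 minus vehicle, 2 lungs per group) with its 95% interval for the 10 tested identifiers of the interferon list and for 4 other loci chosen with their values known. Of the list, 9 intervals include 0 and that of Ifi27 does not, and Gm20663 has the highest value at 3.54. Ifi27, Dexi and Gm17017 met the count filter through the CBL0137 lungs alone.

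Other pathways. For p53 targets, genes that p53 switches on after DNA damage, 4 of the identifiers tested (2 own, 2 opposite) gave 0 calls. Ddb2, a DNA damage sensor gene, had 37, 1, 42 and 44 counts. Rrm2b, which encodes a ribonucleotide reductase subunit and faces Gm49085, had 12, 0, 20 and 15, with a log2 fold change of 0.83 ± 0.75 (SE). Acp2, which faces Ddb2, had a log2 fold change of -0.26 ± 0.51. Both fold changes lay within 2 standard errors of 0.

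Of the circadian list, Nr1d1, the clock repressor Rev-erb alpha, had 25, 2, 7 and 10 counts, or 140 and 121 CPM in the vehicle lungs against 49.5 and 45.9 in the CBL0137 lungs. Nr1d1 was named with its values seen, and it met the count filter through the vehicle lungs alone. Vehicle lung 2 rests on 2 reads there. Nr1d1 faces the 3′ end of the thyroid hormone receptor gene Thra, and its log2 fold change was -1.50 ± 0.64 (SE), unadjusted p 0.0345 (edgeR). Thra, which faces Nr1d1 in turn, had 50, 1, 34 and 71 counts and overlapping groups. Sphk2, opposite the clock output gene Dbp and also Rpl18, had 205, 6, 141 and 398 counts, a log2 fold change of 0.74 ± 0.45. Chid1, opposite Tspan4, was at 0.30 ± 0.45, D930015M05Rik, opposite Cry2, at -0.10 ± 0.69 and Clock, on its own identifier, at -0.10 ± 0.52. None of the circadian identifiers passed (edgeR, Benjamini-Hochberg).

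Tested identifiers of the other stress lists were few and none passed. Vegfa, the vascular growth factor of the hypoxia response, had 17, 5, 6 and 19 counts (log2 fold change -1.03 ± 0.72, SE). Zfp36, which encodes an mRNA decay factor and faces Gm44710, had 17, 2, 2 and 18. Spidr, opposite Cebpd, was at -0.54 ± 0.59. Of heat shock genes, Hsp90ab1 had 45, 2, 10 and 39 counts and a log2 fold change of -0.77 ± 0.57. Dnaja1, which faces Smu1 and Gm6297, had 54, 3, 45 and 88 counts and a log2 fold change of 0.43 ± 0.45. Psd, opposite the NF-kappaB gene Nfkb2, was at -0.71 ± 0.67. In CPM, CBL0137 lung 1 was the lowest of the 4 lungs at Vegfa, Zfp36, Spidr and Hsp90ab1.

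The proliferation list gave 7 tested identifiers of its own and 2 opposite, with 0 calls and medians of 0.04 and -0.14. Ccna2, the S and G2 phase cyclin gene, faces Exosc9 and had 36, 3, 33 and 38 counts. Exosc9, which faces Ccna2 in turn, had 9, 3, 12 and 6 counts and a log2 fold change of -0.45 ± 0.89 (SE). Tk1, the thymidine kinase gene, faces Afmid and had 55, 4, 42 and 54 counts. Tyms, the thymidylate synthase gene, had 18, 4, 83 and 23 counts, of which the high value was CBL0137 lung 1. Rpgrip1, opposite the FACT subunit gene Supt16, had 178, 16, 103 and 215 counts and a log2 fold change of -0.20 ± 0.36 (SE). Ssrp1, the other FACT subunit, had 9, 0, 1 and 4 counts on its own identifier and P2rx3, which faces it, had 0, 0, 2 and 0, too few to test.

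Of the replication-dependent histone genes, 7 identifiers could be tested (3 own, 4 opposite), with 0 calls. All 7 had a log2 fold change above 0, with a median of 0.74, beside 57.1% and 0.09 over all identifiers. With library sizes from all lines of the files 6 were above 0, beside 40.4% of all. Gm20632, opposite Hist2h2aa2, had 285, 13, 288 and 472 counts and a log2 fold change of 0.74 ± 0.37 (SE). Gm20628, opposite Hist2h3b and also Hist2h2bb and Gm42743, had 414, 25, 356 and 417 counts and a log2 fold change of 0.17 ± 0.36, with overlapping groups. 4930558J22Rik, opposite Hist1h4b, had 22, 2, 70 and 26 counts, with CBL0137 lung 1 high. Without CBL0137 lung 1, 5 of the 7 were above 0 and the highest log2 fold change was 0.73.

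Of the mitochondrial genome, 14 identifiers could be tested with 0 calls, and 13 had a log2 fold change above 0 (12 with library sizes from all lines of the files, with upper quartile factors or with DESeq2). Their median was 0.56, beside 57.1% above 0 and a median of 0.09 over all identifiers, and they are not independent, since the mitochondrial genome is transcribed as long shared RNAs. mt-Nd5, a complex I subunit gene, had 852, 66, 1064 and 1216 counts and a log2 fold change of 0.57 ± 0.36 (SE). mt-Nd6, the complex I subunit gene that lies on the other strand and faces mt-Nd5, had 254, 37, 1028 and 317 counts. Its log2 fold change of 1.30 ± 0.56 rested on CBL0137 lung 1 and was -0.18 without it. mt-Rnr1, a ribosomal RNA gene, was the 1 identifier below 0, at -0.27 ± 0.54.

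Cell type markers were compared between the groups in the same way, and none passed the test. Gm13054, opposite the atrial peptide gene Nppa of heart muscle, had 5, 0, 44 and 13 counts, highest in CBL0137 lung 1 (log2 fold change 2.80, and 1.21 without that lung). The 10 cardiac markers on their own identifiers had 18, 1, 2 and 12 counts in sum, and Myh6, which faces Gm49130, had 7, 0, 0 and 1. Apol7d, opposite Fn1, had 15, 1, 61 and 19 counts, a log2 fold change of 1.65 ± 0.75 (SE) that rested on CBL0137 lung 1 and was 0.11 without it. Fpgs, opposite the endothelial gene Eng, had 9, 1, 23 and 22, a log2 fold change of 1.31 ± 0.68 (SE), and Agpat2, opposite Egfl7, had 37, 0, 24 and 45. Endothelial markers on their own identifiers went the other way, summing to 97, 12, 63 and 96 counts. Of the 4 of them tested, 1 was above 0, and the median log2 fold change was -0.54. Club cell markers on their own identifiers summed to 28, 6, 4 and 37 counts, with Scgb1a1 at 19, 4, 4 and 29, so that CBL0137 lung 1 was low. The part of these differences in the values of CBL0137 lung 1 was not tested.

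The 6 identifiers with the most counts also set CBL0137 lung 1 apart. Lars2, which encodes the mitochondrial leucyl-tRNA synthetase, had 11881, 748, 908 and 10653 counts, or 5.92%, 4.51%, 0.502% and 4.37% of each lung. CBL0137 lung 1 was the low one by far. Ccdc107, opposite Rmrp, the RNA of RNase MRP, had 5414, 482, 12575 and 6230 counts, and Gm26809, opposite Gm20186, had 6097, 654, 10336 and 6075, with CBL0137 lung 1 high in both. Gm26825, opposite Gm15459, had 8469, 896, 6529 and 8833 counts, Gm17300, opposite the snoRNA host gene Snhg3, had 5001, 400, 6663 and 7945, and Gm20721, opposite the imprinted gene Gnas, had 3630, 312, 3401 and 4694.

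Lung against wild-type MEF. The effect of CBL0137 in lung was compared with that in wild-type MEF by an interaction term (edgeR quasi-likelihood test, Benjamini-Hochberg). Dose and route differ between the systems (60 mg/kg IV against 1 µM in culture). Strain (NIH Swiss against C57BL/6J) and cell type differ as well, and these cannot be told apart. Of 2899 identifiers tested, 8 (0.276%) differed, 6 higher in lung relative to MEF (0.207%) and 2 lower (0.069%). In a separate fit, 149 of 1757 identifiers (8.48%) were called in MEF, against 0 in lung. At each of the 8 the MEF value was far from 0 and the lung value was not called. In CPM, the vehicle lungs at each of the 8 already lay on the side of untreated MEF to which MEF moved after CBL0137. The part of this starting level in the difference was not tested.

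Copg2 faces the imprinted gene Mest and had 43, 5, 67 and 58 counts in lung, a log2 fold change of 0.52 ± 0.38 (SE). In MEF it had 408 and 562 counts untreated and 17 and 43 after CBL0137, so that it fell by 4.01 on the log2 scale. The difference between the systems was 4.53 ± 0.52 with an adjusted p of 0.00109 (edgeR, Benjamini-Hochberg). Gm20628, opposite Hist2h3b, Hist2h2bb and Gm42743, was level in lung at 0.18 ± 0.31 in this fit, while in MEF it went from 1213 and 1723 counts to 46 and 204. The difference was 3.90 ± 0.45 with an adjusted p of 0.00109 (edgeR). At both identifiers the vehicle lungs were already below untreated MEF. Copg2 was at 216 and 256 CPM in vehicle lungs, 3617 and 3809 in untreated MEF and 273 and 201 in MEF after CBL0137. Gm20628 was at 2080 and 1280 CPM in vehicle lungs and 10754 and 11678 in untreated MEF. Only these 2 were called in each of the 9 other settings.

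Kctd18 faces Sgo2a, the shugoshin that guards centromere cohesion, and had 38, 2, 43 and 22 counts in lung, a log2 fold change of 0.03 ± 0.52 (SE). In MEF it had 186 and 292 counts untreated and 3 and 20 after CBL0137. Cdc23 faces Kif20a, a mitotic kinesin gene, and had 14, 2, 18 and 15 counts in lung and 182, 289, 2 and 30 in MEF in the same order of groups. The differences between the systems were 4.56 ± 0.73 and 4.28 ± 0.75, with adjusted p of 0.0145 and 0.0300 (edgeR, Benjamini-Hochberg). The vehicle lungs, at 102 to 191 and 70.3 to 102 CPM, were already below untreated MEF, at 1649 to 1979 and 1614 to 1959 CPM.

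Ctsa, the lysosomal protective protein gene, faces Pltp, the phospholipid transfer protein gene. It had 1010, 70, 586 and 1486 counts in lung, a log2 fold change of 0.16 ± 0.32 (SE), while in MEF it rose from 35 and 38 counts to 104 and 445. The difference between the systems was -2.57 ± 0.47 with an adjusted p of 0.0369 (edgeR, Benjamini-Hochberg). Vehicle lungs, at 5075 and 3584 CPM for Ctsa, were already above untreated MEF, at 310 and 258 CPM. ENSMUSG00000097432 and ENSMUSG00000045999 have no match in the annotation used, and had log2 fold changes of -0.24 ± 0.29 and 1.14 ± 0.38 in lung against 3.08 ± 0.34 and -2.65 ± 0.39 in MEF. Ppm1e, a protein phosphatase gene and the last of the 8, was at 0.18 ± 0.29 in lung and -2.10 ± 0.29 in MEF.

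**Figure D5:**
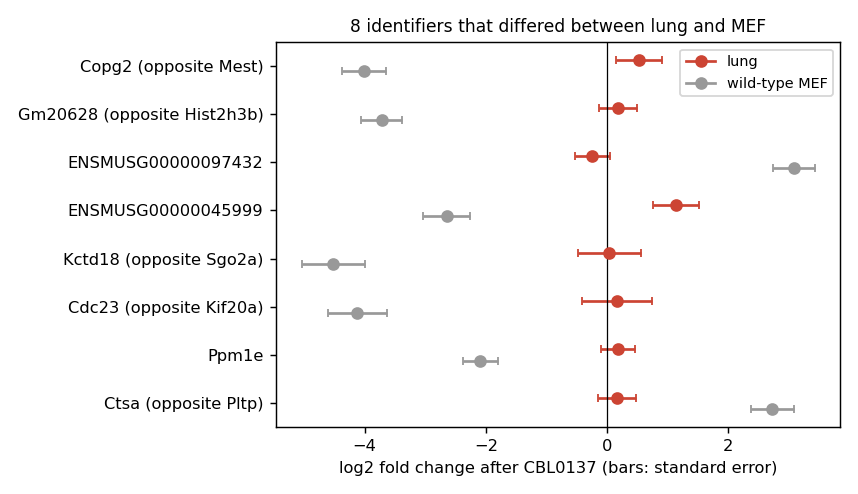
Log2 fold change after CBL0137 in lung and in wild-type MEF (2 libraries per group, bars are standard errors) for the 8 identifiers whose change differed between the systems. In MEF the values lie between -4.52 and 3.08, and in lung between -0.24 and 1.14.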

How the data were processed

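RNA from whole lung was sequenced after ribosomal depletion with a kit that keeps the strand. The authors deposited raw counts per gene identifier, made with TopHat2 2.0.9 and HTSeq on GRCm38/mm10 per the submitters' processing notes, and the strand setting was not given in the sources used here. Lines that name no gene, 98.9% to 99.0% of each lung's total and almost all of them reads on no feature, were left out. No other column of per-sample values was left out. Identifiers were matched to GENCODE M21 (GRCm38), which holds 36429 of 38293 (95.13%). The partner of an identifier is the other-strand gene sharing the most exon bases, else intron bases, else the nearest within 5 kb. Counts were tested with edgeR 4.0.16 by its quasi-likelihood test at a Benjamini-Hochberg adjusted p of 0.05, after TMM scaling and the filterByExpr function (at least 10 counts in a library of median size in 2 lungs, 15 in all) on the 4 lungs, and with an interaction term on the 4 lungs and 4 wild-type MEF libraries. Some identifiers met the filter through the CBL0137 lungs alone, such as Ifi27, Dexi, Gm17017, Gm13054 and ENSMUSG00000082697. Others met it through the vehicle lungs alone, such as C030005K06Rik, Men1 and Nr1d1. Such identifiers could be tested only because they were high in that group. CPM are counts per 1e6 counts on identifiers after TMM scaling, or without it in the check of lung markers. The fit was tested on simulated data. Intervals of ratios are exact binomial.

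Named are identifiers that pass, and otherwise, up to 10 in each direction, those with the smallest p, up to 4 tested identifiers opposite each list, the 6 with the most counts and the 5 in each direction with the smallest p in the interaction. Dexi, Gm11131, Gm17017, the members of the satellite-like group outside that rule, own identifiers of listed genes, and Ppm1e were named with their values seen. 1 identifier that the rule names is not reported here. The lungs, lists and tests were chosen with earlier results of these data known. Alternatives were DESeq2 1.42.0, limma 3.58.1 voom with sample weights, upper quartile factors, library sizes from all lines of the files, no filter, a minimum count of 30, leaving out mitochondrial identifiers, all 10 libraries in 1 fit, and leaving out each lung. Analyses used R 4.3.3.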

Additional observations from a re-analysis of the deposited data

Results flagged for a closer look

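The change after CBL0137 differed between lung and wild-type MEF, by the interaction term of the edgeR quasi-likelihood fit, at 8 named identifiers. On the log2 scale, as lung minus MEF, the difference was 4.53 for Copg2, 3.90 for Gm20628, 3.78 for ENSMUSG00000045999, 4.56 for Kctd18, 4.28 for Cdc23 and 2.28 for Ppm1e. It was -3.33 for ENSMUSG00000097432 and -2.57 for Ctsa. In each case MEF moved and the lung value was not called. In each case, too, the vehicle lungs already differed in level from untreated MEF, on the side to which MEF moved. No group of lungs was large enough to look for a single outlying library by its gap to the others.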

How the results depend on the processing

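The shallow vehicle lung 2 and the distance of CBL0137 lung 1 from CBL0137 lung 2 limit every lung value. For lung, 0 identifiers were also called with DESeq2, upper quartile factors, library sizes from all lines, no filter, a minimum count of 30 and no mitochondrial identifiers. The sample-weighted voom fit called 3 higher and 0 lower, and the fit of all 10 libraries likewise 3 and 0. With each lung left out in turn, 0 to 84 were higher and 0 to 29 lower. The cause was not tested beyond which library was left out. For the interaction (6 higher, 2 lower), the fit of all 10 libraries gave 10 and 4, no filter gave 1 lower, and DESeq2 gave 8 and 3. Leaving out a lung gave 2 to 12 higher and 0 to 3 lower: without vehicle lung 1 there were 2 and 0, without vehicle lung 2 there were 2 and 1, without CBL0137 lung 1 there were 11 and 3, and without CBL0137 lung 2 there were 12 and 3. Library sizes from all lines moved the median log2 fold change of all identifiers from 0.09 to -0.12 and the share above 0 from 57.1% to 40.4%, and gave 30 higher and 30 lower at an unadjusted p of 0.05 in place of 56 and 18. Under it the sign turned, with none called, at Lrp2bp (-0.0665), Cdc23 (-0.0671), Gm20628 (-0.0816), D330041H03Rik (-0.0572), Gm17276 (-0.18) and Tapbp (-0.0118). Gm17276 was also at -0.0439 with voom and -0.0434 with upper quartile factors. Leaving out a lung turned the sign of these uncalled log2 fold changes, given as the lowest and highest values: Prex2 -3.15 to 0.40, Acp2 -0.83 to 0.0868, Chid1 -0.31 to 1.07, Thra -0.0279 to 2.26, D930015M05Rik -0.97 to 0.57, Lrp2bp -0.18 to 6.34, Cdc23 -0.29 to 0.58, Exosc9 -1.70 to 0.38, Rpgrip1 -0.45 to 0.0332, Tsix -0.35 to 0.90, mt-Nd6 -0.18 to 2.11, Gm20628 -0.0536 to 0.60, 4930558J22Rik -0.0206 to 1.98, Hopxos -0.41 to 0.73, Gm16212 -0.19 to 0.70, C430014B12Rik -0.59 to 1.76, Gm15883 -0.48 to 0.0249, Agpat2 -0.12 to 7.57, Gm17276 -0.15 to 0.26, Psme1 -0.0163 to 6.74 and Parp9 -0.47 to 0.70. Without CBL0137 lung 2, 26 of the named lung identifiers gained a call. No paired analysis was possible because the replicate numbers of the lungs were given only to name the samples.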
